A study of Mus musculus with 6 samples.

Results

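The 49 genes described here encode actin and the proteins that nucleate, bind, sever, cap, cross-link, anchor and pull on actin filaments. They were chosen by name from a gene table of 16906 entries, and all 49 were among the 12892 genes that passed the filter on low counts. RNA was sequenced from bone-marrow-derived macrophages, which are grown from marrow precursors, here of wild-type C57BL/6 mice, in 10% serum and 10 ng/ml of macrophage colony-stimulating factor over 7 days. In the stretched group (3 libraries) the macrophages had received exosomes, small vesicles that cells release, of epithelial cells put through cyclic stretch for 6 h. In the static group (3 libraries) the exosomes were those of epithelial cells kept without cyclic stretch. Dose and time were equal, at 100 µg/ml and 12 h, and exosomes were given in both groups, so each difference is one between 2 exosome preparations. The age and sex of the mice, the type or species of the donor epithelium and whether replicates were separate animals or cultures were not stated in the labels. The p-values therefore measure only the spread between these libraries, which may be technical. In RNA of whole cultures, fewer cells of a type and less RNA per cell cannot be told apart.

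Actin monomers assemble into filaments that push the membrane forward, and macrophages rely on them to spread, crawl and engulf particles. The Arp2/3 complex, switched on by proteins of the WASP and WAVE families, starts new filaments as branches on old ones, while formins and Ena/VASP proteins lengthen unbranched ends. Profilin and thymosins hold the monomers, cofilins and coronins take old filaments apart, cappers close the growing ends, and filamin, actinins, talin and vinculin tie filaments to each other and to the membrane. Serum response factor (SRF) transcribes many of these genes through the CArG box in their promoters, and its cofactors of the MRTF family are themselves held back by actin monomers.

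Promoter windows of the members were searched for that box, a 10-base motif whose reverse complement has the same form, so that each match covers both strands. No other motif was searched. The windows came from RefSeq (GRCm38.p6) and run from 250 bases before to 50 bases after a transcription start. Of the 49 members, 44 matched a window by gene identifier (55 windows), and Actb, Arpc5l, Coro1b, Diaph1 and Lsp1 did not. The box was present in 6 of the 44 members (13.6%), against 488 of all 27025 genes with a window (1.81%). Of the 7 members with a window that were lower in the stretched group (adjusted p under 0.05), 2 held it, as did 4 of the other 37. The windows of the actin gene Actg1 (chr11:120348446-120348745, minus strand) and of the lower members Vcl (chr14:20929148-20929447, plus strand) and Arpc4 (chr6:113377863-113378162, plus strand) are given because they join the motif to genes whose levels are described next. Capitals mark the box, which began 90 bases before the start in Actg1, 227 before it in Vcl and 250 before it, at the very edge of the window, in Arpc4.
Actg1 promoter: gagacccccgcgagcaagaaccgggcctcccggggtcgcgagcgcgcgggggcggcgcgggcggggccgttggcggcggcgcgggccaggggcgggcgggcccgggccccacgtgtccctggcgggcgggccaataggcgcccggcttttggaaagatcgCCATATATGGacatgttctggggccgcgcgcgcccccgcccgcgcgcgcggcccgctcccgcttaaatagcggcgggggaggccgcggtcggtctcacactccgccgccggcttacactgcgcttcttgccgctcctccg
Vcl promoter: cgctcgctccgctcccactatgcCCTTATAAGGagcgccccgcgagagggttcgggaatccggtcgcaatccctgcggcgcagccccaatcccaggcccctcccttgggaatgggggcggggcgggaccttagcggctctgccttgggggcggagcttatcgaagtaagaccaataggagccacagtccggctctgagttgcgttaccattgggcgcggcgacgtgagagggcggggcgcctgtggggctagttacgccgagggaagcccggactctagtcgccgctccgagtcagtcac
Arpc4 promoter: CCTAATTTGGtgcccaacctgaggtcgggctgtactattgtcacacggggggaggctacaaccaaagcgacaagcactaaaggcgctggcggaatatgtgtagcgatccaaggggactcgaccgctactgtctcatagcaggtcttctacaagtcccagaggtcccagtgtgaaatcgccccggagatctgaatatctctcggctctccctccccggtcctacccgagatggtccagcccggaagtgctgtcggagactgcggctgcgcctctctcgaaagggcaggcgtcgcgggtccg
The other boxes, shown with 10 bases on each side and picked after the search, lay in Srf itself, which held a pair 82 and 62 bases before its start (chr17:46556235-46556244 and chr17:46556215-46556224, minus strand), in Myl9 161 bases before (chr2:156775303-156775312, plus strand) and in Myl6 50 bases before (chr10:128493050-128493059, minus strand).
Srf upstream site: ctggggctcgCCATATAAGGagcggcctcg
Srf downstream site: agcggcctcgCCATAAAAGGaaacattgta
Myl9 site: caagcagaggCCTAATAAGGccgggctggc
Myl6 site: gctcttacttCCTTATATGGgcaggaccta
A match is a run of letters and no evidence of binding, and these data hold no measure of SRF on any promoter.

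The libraries were of like depth, with 16984600 to 17626000 estimated counts each. Macrophage identity was checked with 10 marker genes, of which 10 of 10 were above 1 CPM (a count scaled to library size) in every library, with summed levels of 22534 to 27370 CPM in the stretched and 24779 to 32885 CPM in the static group. The library static 3 stood apart. Its log2 levels correlated with static 1 and static 2 at 0.958 and 0.962, whereas those of static 1 and static 2 correlated at 0.994. The neutrophil markers summed to 4752, 5904 and 8110 CPM in stretched 1 to 3, against 3863, 5560 and 13739 CPM in static 1 to 3, and 12 of 12 were higher in static 3 than in the other static libraries. The monocyte markers summed to 1114, 1562 and 1451 CPM in stretched 1 to 3, against 545, 653 and 2071 CPM in static 1 to 3, with 7 of 7 highest of the static libraries in static 3. Stroma and smooth muscle markers, whose cells also express contractile actin genes, summed to 7616, 6086 and 8184 CPM in the stretched and 5251, 4760 and 6469 CPM in the static libraries. Of these 12 genes 0 passed, and they did not move together. The log2 fold change was positive for Col1a1 (0.36), Col1a2 (0.39), Col3a1 (0.94), Sparc (0.45), Pdgfrb (0.16), Dcn (2.01) and Lum (1.82). It was negative for the contractile genes Acta2 (-0.69), Tagln (-0.15), Actg2 (-0.63), Cnn1 (-0.51) and Myh11 (-0.62). Acta2, an actin gene, had 294, 215 and 206 CPM stretched and 354, 266 and 532 static (edgeR adjusted p = 0.135). Lung epithelium markers were low, at 39.5, 35.7 and 19.7 CPM in the stretched and 10.99, 15.15 and 15.01 CPM in the static libraries, with 7 of 8 genes listed. Their largest part was Epcam (36.9, 31.2 and 13.4 CPM in the stretched, 8.54, 12.0 and 9.63 CPM in the static libraries). Krt8 was at 0, 0.068 and 0.46 CPM in stretched 1 to 3 and at 0 in the static libraries. Like Sftpb, Scgb1a1 and Krt18, it was too low to be tested. Cdh1 and Ager overlapped between the groups, each with a log2 fold change of 0.14 (edgeR adjusted p = 0.866 and 0.816). Mast cell and basophil markers (48.0 to 60.1 CPM stretched, 26.8 to 71.1 static), lymphocyte markers (36.4 to 45.02 stretched, 33.9 to 49.1 static), dendritic cell markers (6.44 to 11.2 stretched, 6.24 to 15.3 static) and platelet markers (701 to 735 stretched, 426 to 870 static) were summed as well. Of all these marker genes 4 passed the test. The macrophage gene Mertk (59.8, 90.1 and 55.8 CPM stretched, 33.6, 40.5 and 42.8 static; log2 fold change 0.81, edgeR adjusted p = 0.0479) and Epcam (1.43, edgeR adjusted p = 0.044) were higher in the stretched group. The monocyte gene Cx3cr1 (29.1, 21.0 and 18.2 CPM stretched, 49.8, 43.4 and 106 static; -1.54, edgeR adjusted p = 0.0378) and the B cell gene Ms4a1 (-0.91, edgeR adjusted p = 0.0342) were lower, and Cx3cr1 thus ran against the monocyte sums of static 1 and static 2. The part of these cell types and of static 3 in the actin results was not tested beyond the values without static 3 that follow.

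In the fit of all 6 libraries, macrophage cultures given exosomes of stretched cells held less RNA, relative to all genes, of beta-actin and of 7 of the proteins that handle actin. Of the 49 members, 8 were lower in the stretched group and 0 higher at an adjusted p under 0.05 (edgeR quasi-likelihood test, Benjamini-Hochberg over all genes), and 41 did not pass. Over all tested genes 5.38% were lower and 6.55% higher. The 8 were Actb, Actr3, Arpc4, Was, Pfn1, Coro1a, Flna and Vcl. At an unadjusted p under 0.05 there were 14 lower and 3 higher members, against 15.2% and 16.5% of all tested genes. DESeq2, a second count test, called 1 higher (Tmsb10) and 11 lower, the other 3 being Actg1, Arpc2 and Tln1. DESeq2 called 10.2% of its 13266 genes higher and 9.43% lower. The members had a median log2 fold change (stretched over static) of -0.30, against -0.002 for all tested genes, and 34 of 49 were negative. The 41 that did not pass had a median of -0.27 and ran from -0.98 to 0.60.

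Together the 49 genes took 2.78%, 2.48% and 2.64% of all counts in stretched 1 to 3, against 5.05%, 4.95% and 3.30% in static 1 to 3. In CPM, the scale of the other levels here, they summed to 28966.3, 29305.2 and 26308.9 in stretched 1 to 3. The sums in static 1 to 3 were 47526.6, 47605.1 and 29824.5 CPM, so static 3 lay close to stretched 2 on that scale. All 3 stretched libraries lay below all 3 static libraries in 16 members, above them in 2 (Tmsb10 and Cfl2), and overlapped with them in 31. Over all tested genes 18.2% were separated in the lower and 18.5% in the higher direction, beside 16 and 2 of the 49 members. Static 3 lay below both other static libraries in 36 of the 49 members, between them in 5 and above both in 8. The median log2 difference of static 3 from those libraries was -0.37. It was above all 3 stretched libraries in 20 members, below all 3 in 14 and within their range in 15. The stretched libraries were all below both static 1 and static 2 in 29 members and all above both in 5. Shares over all genes were not counted for this separation or for the positions of static 3. Neither can therefore be read as particular to the members.

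**Figure D1:**
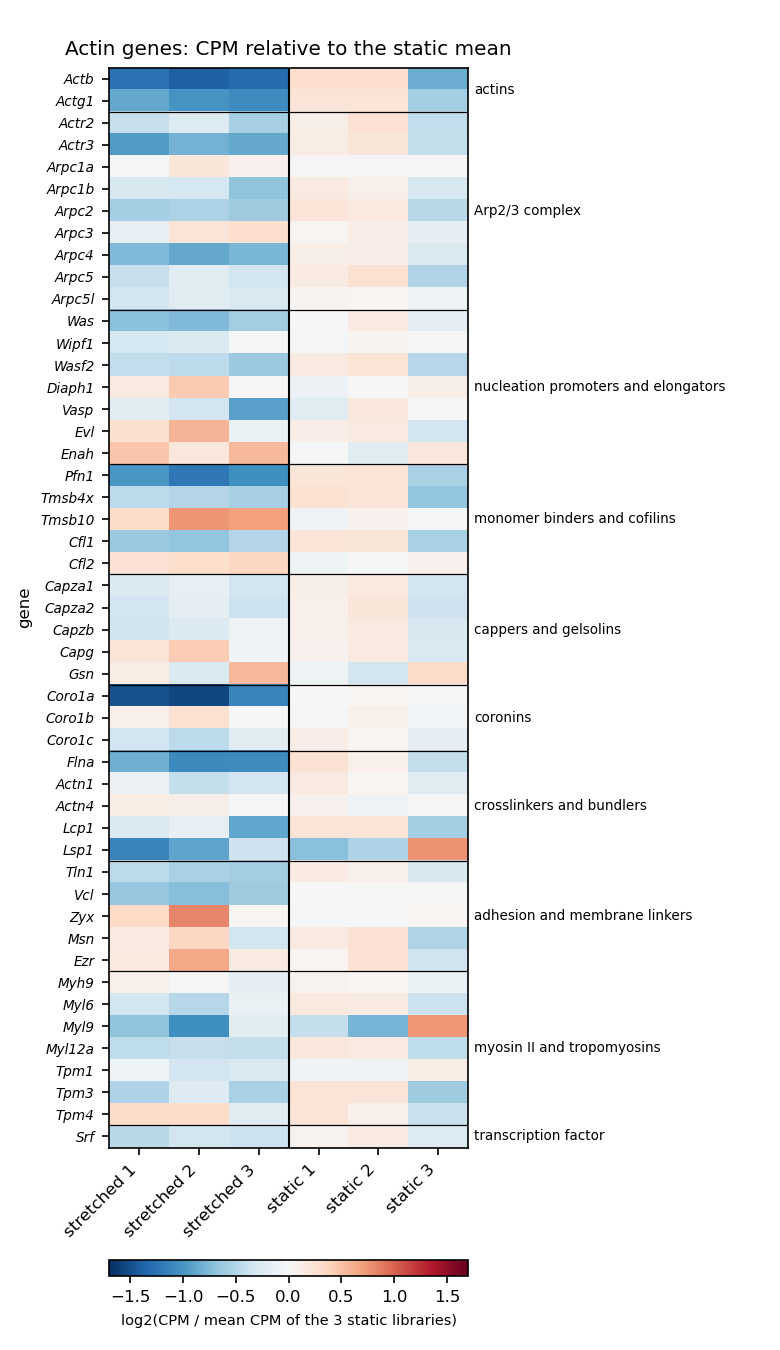
Level of each of the 49 genes (one line each, grouped by role) in each library as log2 of its CPM over the mean CPM of the 3 static libraries, blue below and red above that mean. The lines of Actb, Pfn1, Coro1a and Flna are blue in all 3 stretched libraries, and static 3 is paler or bluer than static 1 and static 2 in most lines, with Lsp1 and Myl9 red.

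How many members passed depended on single libraries. Without static 3, 19 members were lower and 2 higher, while 15.4% of all genes were then lower and 16.1% higher, so both the members' count and the background were larger. That fit had 27 lower and 3 higher members at an unadjusted p under 0.05 (21.5% and 23.3% of all genes), and DESeq2 had 26 and 2 (15.9% and 16.9%). Without stretched 1, stretched 2, stretched 3, static 1 and static 2 the lower members numbered 0, 0, 4, 1 and 0, while 0.214%, 0.0229%, 1.98%, 0.184% and 0% of all genes were lower, so calls were lost over the whole table and not among the members alone. At an unadjusted p under 0.05 these fits had 10, 11, 12, 10 and 10 lower members, against 11.4%, 11%, 15.7%, 10.3% and 10.1% of all genes. DESeq2 had 9 lower members in each, against 5.6%, 4.15%, 8.18%, 4.06% and 4.18% of all genes. Higher members numbered 0 in each of these 5 edgeR fits, against 1.02%, 0.252%, 4.27%, 0.489% and 0% of all genes. At an unadjusted p under 0.05 they numbered 1, 2, 2, 1 and 1, against 13.1%, 11.1%, 14.6%, 11.7% and 11.7%, and in DESeq2 1, 0, 1, 0 and 0, against 6.65%, 5.41%, 9.83%, 6.35% and 6.71%. The titles number the replicates 1 to 3 in both groups. Deviations of same-numbered libraries correlated weakly, at 0.291, 0.173 and 0.150, and those of stretched 1 and static 2 at 0.114. Whether the numbers mark pairs was not tested. A fit with the replicate number as a block was also made. It called 5 of the 8 lower (Arpc4, Was, Coro1a, Flna and Vcl), and 3.16% of all genes lower. With libraries scaled by total count alone, 13 members were lower and 0 higher, but the median of all genes was then -0.19 on the log2 scale, and 10.1% were lower and 4.31% higher. Over all genes the calls split into 844 higher and 694 lower in the fit described here and into 556 and 1297 with that scaling. The limma alternative on FPKM, which is also scaled by total count, gave 12 lower members and a median of all genes of -0.14.

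The members are abundant genes, so they were also set beside genes of like level. Their mean level had a median percentile of 96.4 among all tested genes, and the least abundant, Arpc5l, averaged 25.6 CPM. Among the 6030 genes at or above that level 6.55% were lower and 8.31% higher. At 500 CPM and above, a level chosen after the values were seen, 5 of 292 genes were lower (1.71%), and 4 of these 5 were members (Actb, Actr3, Pfn1 and Flna) out of 19 members at that level. The 1.71% thus includes the members and is no separate background for them. The members were also chosen with earlier results of these data known.

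**Figure D2:**
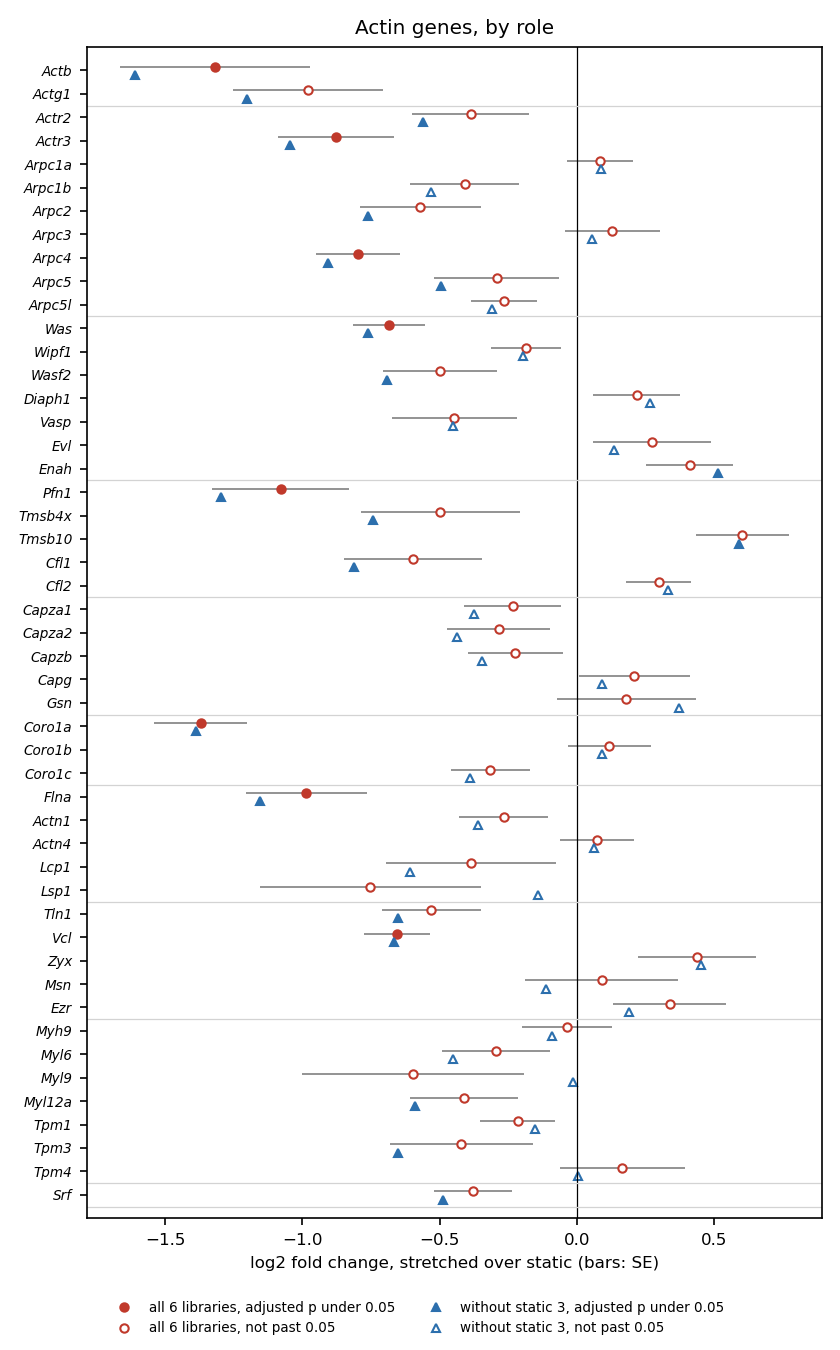
Log2 fold change of each member, stretched over static, with bars of 1 SE. Circles are the fit of all 6 libraries and triangles the fit without static 3, filled where the adjusted p was under 0.05. Filled circles mark the 8 lower members, and 19 triangles on the left and 2 on the right (Enah and Tmsb10) are filled.

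Both cytoplasmic actin genes were low in all 3 stretched libraries. Actb (chromosome 5, 142903115 to 142907976, gene identifier 11461) encodes beta-actin, the main actin of cells that are not muscle. It had 3591, 3289 and 3464 CPM in stretched 1 to 3, against 10521, 10469 and 4802 CPM in static 1 to 3. The stretched libraries were close together and all below the lowest static library, static 3, which itself lay far below its own group. Actb averaged 3448 ± 151 CPM in the stretched and 8597 ± 3287 CPM in the static group (SD, n = 3 each), a log2 fold change of -1.32 ± 0.34 (SE, edgeR adjusted p = 0.0489). For Actb the replicate block gave an adjusted p of 0.0609, and leaving out 1 library gave 0.14, 0.153, 0.0883, 0.156, 0.161 and 0.00404 in the order stretched 1 to 3, static 1 to 3 (0.000278 to 0.161 over all alternatives).

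Actg1 (chromosome 11, 120345687 to 120348495, gene identifier 11465) encodes gamma-actin, which differs from beta-actin in a few residues at its start. It had 2061, 1885 and 1787 CPM in stretched 1 to 3, against 4399, 4385 and 2513 CPM in static 1 to 3. As for Actb, the groups did not overlap and static 3 was the static library nearest to the stretched ones. The log2 fold change of -0.98 ± 0.27 did not pass in edgeR (adjusted p = 0.0574). Actg1 passed in DESeq2 and without static 3 (edgeR adjusted p = 0.00607), and over all alternatives its adjusted p ran from 0.0013 to 0.19. Summed, the 2 actins held 5652, 5175 and 5250 CPM in stretched 1 to 3, against 14919, 14854 and 7315 CPM in static 1 to 3. How reads shared between the 2 genes, or with processed copies elsewhere in the genome, were divided is not given in the sources used here, so the split between them is uncertain.

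**Figure D3:**
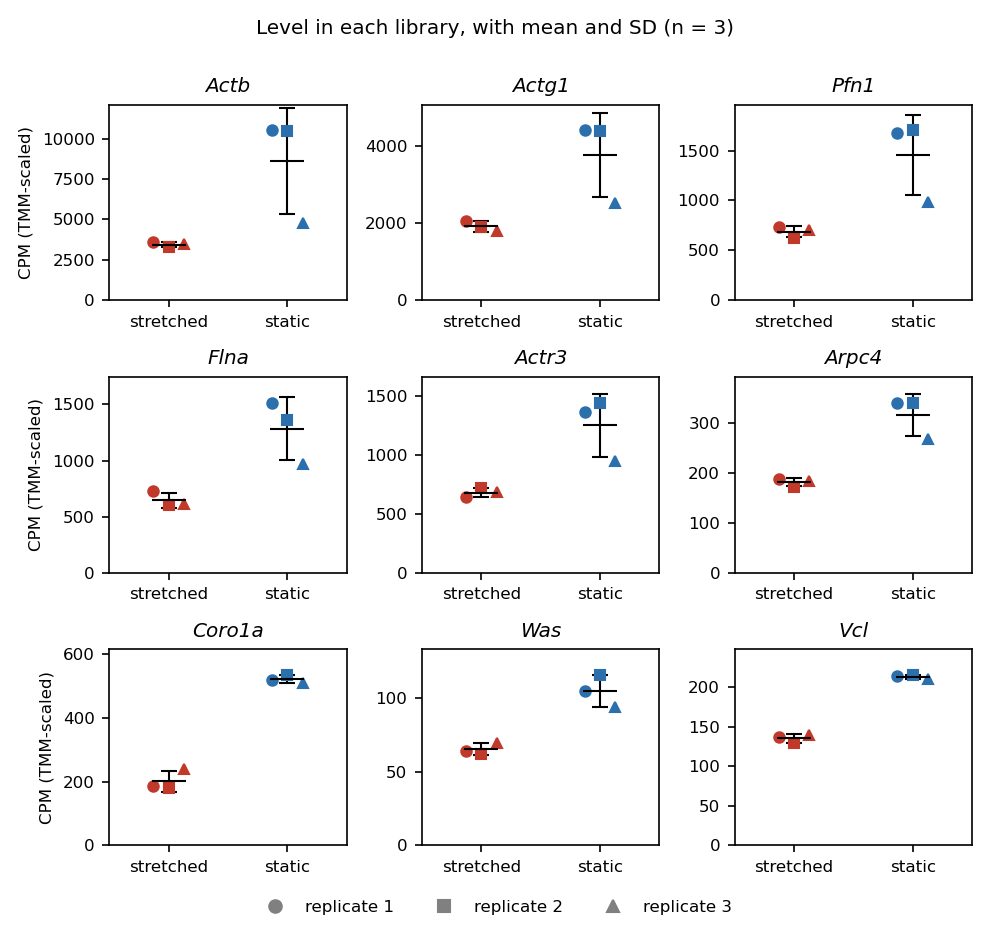
CPM of both actins and of the other 7 members lower in the stretched group, 1 panel per gene with an axis from 0, 1 point per library, and the mean with SD (n = 3 per group). In all 9 panels the 3 stretched points lie below the 3 static points; for Coro1a and Vcl static 3 lies with static 1 and static 2, and for Actb it lies far below them.

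Of the 9 genes of the Arp2/3 complex, 2 were lower in the stretched group and 0 higher, with a median log2 fold change of -0.39. Actr3 (chromosome 1, 125392905 to 125435727, gene identifier 74117) encodes Arp3, one of the 2 actin-like subunits that form the base of a branch. It had 639, 719 and 685 CPM in stretched 1 to 3, against 1361, 1444 and 948 CPM in static 1 to 3, without overlap. Its log2 fold change was -0.88 ± 0.21 (edgeR adjusted p = 0.0408). Actr3 had an adjusted p of 0.053 with the replicate block and of 0.137, 0.118, 0.0705, 0.14, 0.149 and 0.00538 with each library left out, in the order stretched 1 to 3, static 1 to 3 (0.000427 to 0.149 over all alternatives).

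Arpc4 (chromosome 6, 113378113 to 113390447, gene identifier 68089) encodes a core subunit that holds the complex together, and its promoter window holds a CArG box at its edge. It had 189, 172 and 184 CPM in stretched 1 to 3, against 340, 341 and 267 CPM in static 1 to 3. The stretched libraries varied little and static 3 was again the lowest static one. The log2 fold change of Arpc4 was -0.80 ± 0.15 (edgeR adjusted p = 0.0246). With each library left out in the same order its adjusted p was 0.0831, 0.0957, 0.0471, 0.0993, 0.104 and 0.0044 (4.98e-05 to 0.104 over all alternatives).

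The other 7 Arp2/3 genes did not pass. The second actin-like subunit gene Actr2 had a log2 fold change of -0.39 ± 0.21 (edgeR adjusted p = 0.255) and overlapping libraries. Arpc2, whose product with that of Arpc4 binds the mother filament, stood at -0.57 ± 0.22 (edgeR adjusted p = 0.123), with 678, 697 and 668 CPM in the stretched and 1174, 1130 and 730 CPM in the static libraries. Arpc1b at -0.41, Arpc5 at -0.29 and Arpc5l at -0.27 were negative too, and the paralogue Arpc1a (0.08) and the small subunit gene Arpc3 (0.13) were near 0. The sign of Arpc1a and Arpc3 turned negative with scaling by total count alone. Without static 3, Actr2, Arpc2 and Arpc5 passed (edgeR adjusted p = 0.0385, 0.0111 and 0.0426), each the lowest of its alternatives, whose highest were 0.593, 0.347 and 0.78. The subunits of this one complex thus ran from -0.88 to 0.13, and no test of a difference between subunits was made.

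Among the 7 nucleation promoters and elongators, 1 gene was lower and 0 higher, with a median of -0.19. Was (X chromosome, 8081466 to 8090491, gene identifier 22376) encodes WASP, the blood-cell protein that switches on Arp2/3 and is lost in Wiskott-Aldrich syndrome. It had 63.7, 62.0 and 69.7 CPM in stretched 1 to 3, against 105, 116 and 93.8 CPM in static 1 to 3, without overlap. Its log2 fold change was -0.68 ± 0.13 (edgeR adjusted p = 0.0246). For Was the adjusted p was 0.0882, 0.0958, 0.0388, 0.0919, 0.106 and 0.00588 with stretched 1 to 3 and static 1 to 3 left out (0.000355 to 0.106 over all alternatives). Its partner gene Wipf1, whose product shields WASP from breakdown, stood at -0.19 ± 0.13 (edgeR adjusted p = 0.349), with static 3 in the range of the other static libraries.

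The remaining promoters and elongators pointed in both directions. Wasf2, the WAVE protein of lamellipodia, had 207, 203 and 178 CPM in the stretched and 307, 325 and 198 CPM in the static libraries (log2 fold change -0.50 ± 0.21, edgeR adjusted p = 0.148). Without static 3 Wasf2 passed (edgeR adjusted p = 0.0109, range over all alternatives 0.0109 to 0.394). Vasp, which extends filament ends, stood at -0.45, its relatives Evl and Enah at 0.27 and 0.41, and the formin gene Diaph1 at 0.22, none past the threshold. Enah had 97.9, 79.8 and 104 CPM in the stretched and 69.1, 62.3 and 80.6 CPM in the static libraries, so that stretched 2 lay just below static 3. It was higher without static 3 (edgeR adjusted p = 0.0385, range over all alternatives 0.0385 to 0.571).

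Of the 5 monomer binders and cofilins, 1 was lower and 0 higher. Pfn1 (chromosome 11, 70651844 to 70656799, gene identifier 18643) encodes profilin 1, which loads monomers with ATP and delivers them to growing ends. It had 735, 624 and 708 CPM in stretched 1 to 3, against 1672, 1704 and 989 CPM in static 1 to 3. As for Actb, the groups did not overlap, with static 3 between its own group and the stretched libraries. The log2 fold change of Pfn1 was -1.08 ± 0.25 (edgeR adjusted p = 0.037). For Pfn1 the replicate block gave an adjusted p of 0.0531, and leaving out stretched 1 to 3 and static 1 to 3 gave 0.107, 0.129, 0.0686, 0.126, 0.131 and 0.00388 (0.000242 to 0.131 over all alternatives).

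The 2 thymosin genes, whose small products keep monomers out of filaments, had values on opposite sides of 0. Tmsb10 was the member with the highest log2 fold change, and its values were looked up after that was seen. It had 355, 482 and 462 CPM in stretched 1 to 3, against 275, 299 and 282 CPM in static 1 to 3, with no overlap. Its log2 fold change of 0.60 ± 0.17 did not pass in edgeR (adjusted p = 0.0584), and did in DESeq2 (adjusted p = 0.0102) and without static 3 (edgeR adjusted p = 0.0446), in a range over all alternatives of 0.0102 to 0.194. Tmsb4x, the main thymosin, had 3106, 3001 and 2866 CPM in stretched 1 to 3, against 5062, 4936 and 2672 CPM in static 1 to 3. Static 3 was thus the lowest of all 6 libraries, and the log2 fold change was -0.50 ± 0.29 (edgeR adjusted p = 0.279, 0.026 without static 3, range over all alternatives 0.026 to 0.583).

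The cofilins, which sever old filaments, were split in the same way. Cfl1, the cofilin of most cells, had 1188, 1150 and 1294 CPM in stretched 1 to 3, against 2137, 2106 and 1250 CPM in static 1 to 3, a log2 fold change of -0.60 ± 0.25 (edgeR adjusted p = 0.15). Static 3 lay within the range of the stretched libraries, and without it Cfl1 passed (edgeR adjusted p = 0.0134, range over all alternatives 0.0134 to 0.384). Cfl2, the muscle form and a minor one here, stood at 0.30 ± 0.12 (edgeR adjusted p = 0.134), with its 34.0 to 36.7 CPM in the stretched libraries above the 27.4 to 30.2 CPM of the static ones.

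None of the 5 cappers and gelsolins passed (0 of 5 in edgeR, in DESeq2 and in edgeR without static 3, and 0 at an unadjusted p under 0.05), and their median was -0.22. Of all tested genes 5.38% were lower and 6.55% higher in edgeR, so 0 of 5 cannot show this class to be spared. Capg, a macrophage protein that closes filament ends when calcium rises, was the most abundant per length. It had 725, 843 and 598 CPM in stretched 1 to 3, against 660, 692 and 523 CPM in static 1 to 3, which overlap (log2 fold change 0.21 ± 0.20, edgeR adjusted p = 0.514). Capzb, the beta subunit of capping protein, had 338, 361 and 403 CPM in stretched 1 to 3, against 458, 475 and 354 CPM in static 1 to 3 (-0.22 ± 0.17, edgeR adjusted p = 0.412). The alpha subunit genes Capza1 and Capza2 stood at -0.23 and -0.28, next to Capzb, their partner in the capping dimer. Gsn, gelsolin, stood at 0.18 ± 0.25 with wide spread in both groups, and its sign was negative without stretched 3 and in limma.

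Coro1a had the lowest log2 fold change of the 49 members, and 1 of the 3 coronin genes was lower and 0 higher. Coro1a (chromosome 7, 126699774 to 126704816, gene identifier 12721) encodes coronin 1A, the coronin of blood cells, which coats filaments near the membrane and around phagosomes. It had 187, 179 and 239 CPM in stretched 1 to 3, against 519, 535 and 510 CPM in static 1 to 3. Here static 3 did not stand apart, and the highest stretched library was far below the lowest static one. Coro1a averaged 202 ± 32.8 CPM in the stretched and 521 ± 12.8 CPM in the static group (SD, n = 3 each), a log2 fold change of -1.37 ± 0.17 (edgeR adjusted p = 0.0129). It passed with the replicate block (edgeR adjusted p = 0.024), and with stretched 1 to 3 and static 1 to 3 left out the adjusted p was 0.0511, 0.058, 0.0176, 0.0461, 0.0541 and 0.00367 (8.21e-13 to 0.058 over all alternatives).

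The more widely expressed coronins did not pass. Coro1b had 427, 481 and 400 CPM in the stretched and 391.6, 425 and 388 CPM in the static libraries, a log2 fold change of 0.12 ± 0.15 (edgeR adjusted p = 0.631), and its sign turned negative with scaling by total count alone. Coro1c stood at -0.32 ± 0.14 (edgeR adjusted p = 0.177), with no overlap between the groups.

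Of the 5 crosslinkers and bundlers, 1 was lower and 0 higher. Flna (X chromosome, 74223461 to 74249854, gene identifier 192176) encodes filamin A, which joins filaments into a mesh and ties them to integrins. It had 724, 606 and 613 CPM in stretched 1 to 3, against 1516, 1360 and 970 CPM in static 1 to 3. The groups were apart and static 3 was the lowest static library. The log2 fold change of Flna was -0.99 ± 0.22 (edgeR adjusted p = 0.0341). With stretched 1 to 3 and static 1 to 3 left out its adjusted p was 0.0901, 0.119, 0.0682, 0.123, 0.122 and 0.00527 (0.000129 to 0.123 over all alternatives).

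The other crosslinkers did not pass in any direction. Lcp1, L-plastin, a bundling protein of blood cells, stood at -0.39 ± 0.31 (edgeR adjusted p = 0.429), with stretched 3 and static 3 the lowest of their groups at 1512 and 1877 CPM. The actinin genes Actn1 and Actn4 stood at -0.27 and 0.07, the sign of Actn4 turning negative with scaling by total count alone. Lsp1, a leukocyte protein that binds filaments and is abundant in neutrophils, had 42.8, 50.1 and 73.3 CPM in the stretched and 57.3, 64.9 and 158 CPM in the static libraries (-0.75 ± 0.40, edgeR adjusted p = 0.241). Its static 3 value was above those of all other libraries, as were the summed neutrophil markers of that library, and the log2 fold change without static 3 was -0.14.

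Of the 5 adhesion and membrane linkers, 1 was lower and 0 higher, and the median was 0.09. Vcl (chromosome 14, 20929383 to 21033676, gene identifier 22330) encodes vinculin, which strengthens the link between integrin-bound talin and filaments, and its promoter window holds a CArG box. It had 137, 129 and 140 CPM in stretched 1 to 3, against 214, 216 and 211 CPM in static 1 to 3. These were the tightest static values of the 49 genes, the highest being 1.02 times the lowest, and static 3 did not stand apart. The log2 fold change of Vcl was -0.66 ± 0.12 (edgeR adjusted p = 0.0233). In the fits without stretched 1 to 3 and static 1 to 3 its adjusted p was 0.0831, 0.088, 0.0395, 0.0925, 0.1 and 0.00799 (7.16e-06 to 0.1 over all alternatives).

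Tln1, talin 1, had 686, 640 and 622 CPM in stretched 1 to 3, against 1037, 998 and 777 CPM in static 1 to 3. The groups did not overlap, yet its log2 fold change of -0.53 ± 0.18 did not pass in edgeR (adjusted p = 0.094). It passed in DESeq2 (adjusted p = 0.0154) and without static 3 (edgeR adjusted p = 0.0181), in a range of 0.0154 to 0.291 over all alternatives. Zyx, zyxin, which gathers where filaments are under tension, stood at 0.44 ± 0.21 with 338, 476 and 275 CPM in the stretched and 264, 265 and 276 CPM in the static libraries. Ezr and Msn, ezrin and moesin, which tie filaments to the membrane, stood at 0.34 and 0.09. Moesin is by far the more abundant of the pair in these cells, its static 3 value of 1163 CPM was the lowest of all 6 libraries, and its sign was negative without static 3, without stretched 2 and with scaling by total count alone.

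None of the 7 myosin II and tropomyosin genes passed (0 in edgeR and in DESeq2, and 0 in edgeR before adjustment at p under 0.05), and their median was -0.30. Beside 5.38% lower and 6.55% higher over all tested genes in edgeR, 0 of 7 cannot show this class to be spared. Myl6, an essential light chain and the most abundant per length, had 309, 275 and 355 CPM in stretched 1 to 3, against 431, 423 and 300 CPM in static 1 to 3 (log2 fold change -0.30 ± 0.20, edgeR adjusted p = 0.338). Tpm3, a tropomyosin, which covers filaments, had 721, 892 and 709 CPM in stretched 1 to 3, against 1218, 1210 and 681 CPM in static 1 to 3 (-0.42 ± 0.26, edgeR adjusted p = 0.308). In both genes static 3 lay at or below the stretched libraries, apart from stretched 2 in Myl6. Tpm3 was lower without static 3 (edgeR adjusted p = 0.0298, range over all alternatives 0.0298 to 0.611), as was the regulatory light chain gene Myl12a (0.016, range 0.016 to 0.477), which stood at -0.41 with all libraries.

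The motor gene itself, Myh9, stood at -0.04 ± 0.17 (edgeR adjusted p = 0.906), with 870, 801 and 734 CPM in the stretched and 859, 844 and 763 CPM in the static libraries. The difference was smaller than its SE. Tpm1 stood at -0.22 and Tpm4 at 0.17, and the sign of Tpm4 turned negative with scaling by total count alone. Myl9, the light chain of smooth muscle and stroma, had 26.4, 20.7 and 37.3 CPM in the stretched and 32.2, 24.5 and 70.8 CPM in the static libraries. Its log2 fold change was -0.60 ± 0.40 (edgeR adjusted p = 0.349) and -0.01 without static 3, the library in which 11 of 12 stroma and smooth muscle markers were the highest of the static group.

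Srf, which encodes the transcription factor, had 42.9, 47.7 and 46.3 CPM in stretched 1 to 3, against 62.2, 65.6 and 50.4 CPM in static 1 to 3. The groups did not overlap, but the log2 fold change of -0.38 ± 0.14 did not pass in edgeR (adjusted p = 0.115, 0.0176 without static 3, range over all alternatives 0.0176 to 0.347). RNA of Srf says nothing of its activity, which depends on its cofactors.

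Levels per length set the genes on one scale. On the FPKM scale (counts per length and per library total), Tmsb4x was the most abundant member, at a mean of 5366 FPKM in the stretched and 8640 FPKM in the static group. Next in the static group came Actb (1827 FPKM stretched, 5158 FPKM static), Actg1 (1017 stretched, 2278 static), Pfn1 (898 stretched, 2150 static) and Cfl1 (1098 stretched, 1884 static). The static libraries of Actg1, Pfn1 and Cfl1 overlapped, so the order of these neighbours was within their spread. Tmsb10 stood at 968 FPKM in the stretched and 731 FPKM in the static group.

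The balance between paralogues was compared as the share of each in its family's summed FPKM, which does not depend on scaling between libraries. Of 17 shares, the one with the largest difference was that of Coro1a among the 3 coronin genes, at 28.9%, 26.3% and 35.0% in stretched 1 to 3, against 53.1%, 52.6% and 53.9% in static 1 to 3. Coro1b made up 58.5%, 62.7% and 51.9% in the stretched and 35.6%, 37.1% and 36.4% in the static libraries. So Coro1b was the main coronin gene by this measure in the stretched libraries and Coro1a in the static ones. Tmsb10's share of the thymosins was 12.5%, 16.7% and 16.8% in the stretched and 6.36%, 7.05% and 11.6% in the static libraries. Tpm4's share of the tropomyosins was 47.6%, 44.4% and 40.2% in the stretched and 35.7%, 33.9% and 36.3% in the static libraries. Vasp's share of the Ena/VASP genes was 66.0%, 60.3% and 59.5% in the stretched and 69.0%, 74.1% and 76.4% in the static libraries, with Evl making up most of the difference (28.8%, 35.5% and 32.6% stretched, 27.1%, 23.0% and 19.3% static).

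Actn4's share of the actinins was 53.4%, 58.3% and 54.9% in the stretched and 48.0%, 48.2% and 52.9% in the static libraries, and Cfl2's share of the cofilins 1.07% ± 0.0488 in the stretched and 0.622% ± 0.235 in the static group (SD, n = 3 each). These 8 shares did not overlap between the groups and had an exact two-sided permutation p of 0.1, the smallest that 3 against 3 libraries allow, and 0.2125 after adjustment over the 17. Coro1a and Coro1b are parts of the same sum, as are Vasp and Evl, so their shares are not independent. Families of other genes were not counted. Among single genes 18.2% were separated in the lower and 18.5% in the higher direction. Beta-actin's share of the 2 actins was 63.4%, 63.4% and 65.8% in the stretched and 70.4%, 70.3% and 65.5% in the static libraries, where static 3 lay among the stretched ones (exact permutation p = 0.2). The shares of Arpc1b, Arpc5l, Tpm1, Tpm3, Coro1c, Capza2, Ezr and Enah in their families overlapped as well (exact permutation p of 0.2 to 1).

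**Figure D4:**
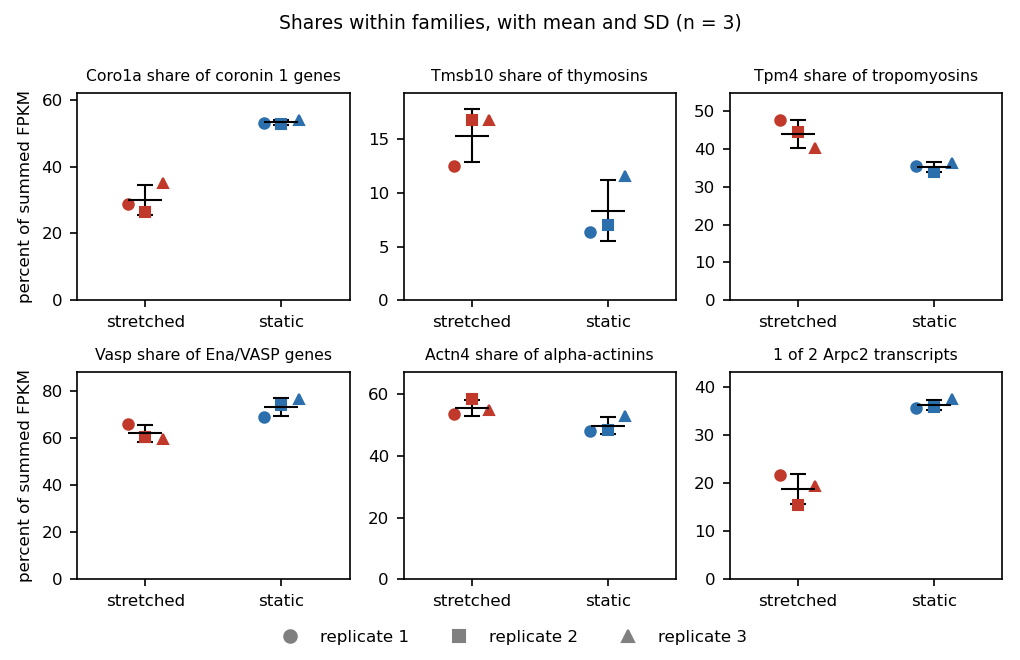
Percent of a family's summed FPKM taken by 1 gene (5 panels) or of Arpc2's FPKM taken by 1 of its 2 transcripts, each axis from 0, 1 point per library, with mean and SD (n = 3 per group). Coro1a took 26.3% to 35.0% of the coronin genes in the stretched and 52.6% to 53.9% in the static libraries. Only shares whose groups did not overlap are drawn, so the separation in each panel follows from that choice.

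The transcript table listed 172 transcripts of the members, of which 141 were tested. None was called in edgeR (0 of 141). At an unadjusted p under 0.05, edgeR had 26 lower and 6 higher (against 7.57% and 7.85% of all tested transcripts), while DESeq2 after adjustment had 19 and 5. Over all 29604 transcripts edgeR called 1 (0.00338%), and DESeq2 called 2595 of 33870 (7.66%). In simulated data the edgeR test recovered 0 of 100 transcripts changed 2-fold and 6 of 100 changed 4-fold, so it could hardly have called changes of the size seen in these genes.

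The 6 member transcripts with the smallest p followed their genes in 3 cases and not in the others. The main Coro1a transcript NM_009898.3 had 178, 165 and 232 CPM in the stretched and 504, 513 and 491 CPM in the static libraries (log2 fold change -1.39 ± 0.17, edgeR adjusted p = 0.0927), and the minor XM_006507284.3 a log2 fold change of -1.40. The main Vcl transcript NM_009502.4 stood at -0.70 ± 0.11. Arpc2, in contrast, had a transcript, NM_029711.1, with 162, 117 and 144 CPM in the stretched and 460, 441 and 299 CPM in the static libraries (-1.50 ± 0.22, edgeR adjusted p = 0.101), a larger difference than that of the whole gene. It took 21.7%, 15.5% and 19.5% of the gene's FPKM in the stretched and 35.6%, 35.9% and 37.5% in the static libraries, the rest being XM_006496317.2. The groups were apart in this share and static 3 lay with the other static libraries. The last pair were minor transcripts. Wasf2 XM_006538849.3 had 3.80, 2.74 and 3.54 CPM in the stretched and 8.81, 14.2 and 11.2 CPM in the static libraries. Enah NM_010135.3 had 0, 0 and 0.058 CPM in the stretched and 2.94, 2.81 and 2.26 CPM in the static libraries, while Enah as a gene was not lower. How the counting tool divided reads among transcripts that share exons is not given in the sources used here, so these splits are uncertain.

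Beyond the 49 members, a list of 89 other actin genes was read in the same fit (89 of 89 tested, Mrtfa and Mrtfb under their older symbols Mkl1 and Mkl2). Of these 10 were lower in the stretched group and 2 higher, against 5.38% and 6.55% of all tested genes, and their median log2 fold change was -0.12. At an unadjusted p under 0.05, 19 were lower and 13 higher, against 15.2% and 16.5% of all tested genes. Without stretched 1 to 3 and static 1 to 3 in turn, 2, 1, 8, 2, 0 and 21 were lower. Of all genes 0.214%, 0.0229%, 1.98%, 0.184%, 0% and 15.4% were then lower. In the same order 0, 0, 5, 0, 0 and 8 were higher, against 1.02%, 0.252%, 4.27%, 0.489%, 0% and 16.1% of all genes. Without static 2, edgeR gave 12 lower and 8 higher at an unadjusted p under 0.05, against 10.1% and 11.7% of all genes. DESeq2 gave 8 and 4 in that case, against 4.18% and 6.71%.

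Elmo1, part of the complex that activates Rac during engulfment, had 41.3, 36.4 and 47.1 CPM in the stretched and 140, 144 and 124 CPM in the static libraries, a log2 fold change of -1.71 ± 0.15 (edgeR adjusted p = 0.0108). Its leukocyte partner Dock2, the exchange factor itself, had 113, 125 and 121 CPM in the stretched and 197, 197 and 217 CPM in the static libraries (-0.77 ± 0.13, edgeR adjusted p = 0.0193). Static 3 did not lie near the stretched libraries in either gene. Elmo1 lost its call without static 2 alone (edgeR adjusted p = 0.0516, range over all alternatives 1.74e-19 to 0.0516). Dock2 lost it without stretched 1, stretched 2, static 1 and static 2 (0.0729, 0.0721, 0.0724 and 0.0784, range 1.72e-06 to 0.0784). Ssh2, a phosphatase that activates cofilin, had 24.4, 22.1 and 28.4 CPM in the stretched and 79.1, 64.4 and 57.8 CPM in the static libraries and was lower by a log2 fold change of -1.42 ± 0.17 (edgeR adjusted p = 0.0122). Pak1, a kinase that Rac switches on, had 25.5, 26.1 and 34.7 CPM in the stretched and 58.2, 63.4 and 59.6 CPM in the static libraries and was lower by one of -1.07 ± 0.16 (edgeR adjusted p = 0.0156). Ssh2 lost its call without stretched 2 and static 2 (0.058 and 0.0541, range 5.5e-10 to 0.058), and Pak1 without stretched 1, stretched 2, static 1 and static 2 (0.0607, 0.0713, 0.0606 and 0.0722, range 1.27e-06 to 0.0722). Outside the naming rule, the related kinase gene Pak2 was lower too (-0.61 ± 0.16, edgeR adjusted p = 0.0485, and 0.0568 with the replicate block), and passed with a library left out only without static 3 (0.0063, range 0.0063 to 0.177).

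Of the 17 other nucleation and WAVE complex genes, 1 was lower and 1 higher, beside 5.38% and 6.55% of all tested genes. So few calls are not read as a result about a group, here or in the groups that follow. Fmnl1, a formin of blood cells, had 108, 94.7 and 154 CPM in the stretched and 205, 197 and 237 CPM in the static libraries (log2 fold change -0.84 ± 0.20, edgeR adjusted p = 0.0418). Abi3, a subunit of a WAVE complex, had 134, 158 and 100 CPM in the stretched and 52.1, 66.8 and 78.0 CPM in the static libraries (0.99 ± 0.22, edgeR adjusted p = 0.032). The pair thus moved in opposite directions. Both lost the call without stretched 1, stretched 2, static 1 and static 2, with adjusted p of 0.133, 0.136, 0.113 and 0.11 for Fmnl1 (range over all alternatives 0.0027 to 0.136) and of 0.0937, 0.122, 0.108 and 0.11 for Abi3 (range 0.00133 to 0.122), and Abi3 also with the replicate block (0.0545).

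Among 17 other crosslinkers, adhesion and membrane linkers, 2 were lower and 0 higher, beside 5.38% and 6.55% of all tested genes. They were Aif1, a macrophage protein that bundles filaments, with 51.5, 58.7 and 81.9 CPM in the stretched and 116, 151 and 125 CPM in the static libraries (log2 fold change -1.03 ± 0.20, edgeR adjusted p = 0.0258), and Swap70, which binds filaments and the membrane, with 85.0, 76.7 and 58.7 CPM in the stretched and 127, 146 and 114 CPM in the static libraries (-0.81 ± 0.18, edgeR adjusted p = 0.0321). Without stretched 1, stretched 2, static 1 and static 2 the adjusted p was 0.0833, 0.108, 0.0726 and 0.0977 for Aif1 (range over all alternatives 0.00022 to 0.108) and 0.0713, 0.105, 0.1 and 0.118 for Swap70 (range 0.00145 to 0.118), and Swap70 also missed without stretched 3 (0.0543). Of 11 other contractile genes only Myo1g, a membrane-bound myosin of blood cells, was lower, with 68.2, 71.7 and 78.5 CPM in the stretched and 156, 162 and 120 CPM in the static libraries (-1.002 ± 0.16, edgeR adjusted p = 0.0179). In the same fits Myo1g had an adjusted p of 0.0681, 0.0765, 0.0683 and 0.0779 (range 3.29e-06 to 0.0779). Of 12 other monomer, turnover and capping genes 0 passed in edgeR (4 lower and 2 higher at an unadjusted p under 0.05, and 1 lower by DESeq2). The most abundant, Cap1, which helps cofilin recycle monomers, had 630, 687 and 679 CPM in the stretched and 971, 984 and 817 CPM in the static libraries (-0.47 ± 0.17, edgeR adjusted p = 0.1).

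The 11 SRF cofactors and immediate targets had 1 lower and 1 higher, beside 5.38% and 6.55% of all tested genes. Ier2, an immediate early gene, had 31.7, 29.5 and 30.8 CPM in the stretched and 40.4, 49.5 and 47.3 CPM in the static libraries (log2 fold change -0.58 ± 0.13, edgeR adjusted p = 0.0354). Elk3, a cofactor of the ternary complex family, which binds SRF in place of MRTF proteins, had 234, 282 and 165 CPM in the stretched and 110, 94.3 and 77.1 CPM in the static libraries (1.28 ± 0.23, edgeR adjusted p = 0.0224). Elk3 lost its call without stretched 1, stretched 2, static 1 and static 2 (0.0713, 0.0863, 0.0656 and 0.0881, range over all alternatives 3.22e-05 to 0.0881). Ier2 passed with a library left out only without static 3 (0.0192, range 0.00474 to 0.142) and missed with the replicate block (0.064). The median of the 11 was 0.04.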

How the data were processed

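Per the file headers, the deposited gene and transcript tables give each library an estimated count, which is neither whole nor normalised. A further column per library carries no unit. Its values equal the count over a length and over the library total, so they were taken as FPKM from the authors. The submitters' processing notes name the builds GRCm38 and mm10. Which aligner and counting tool were used, and whether strand was kept, is not given in the sources used here.

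Counts were rounded and genes kept by filterByExpr (minimum count 10). All genes were fitted together in edgeR 4.0.16 (R 4.3.3, TMM factors, quasi-likelihood test, no block), and p-values were adjusted over all genes with a threshold of 0.05. CPM denotes the count relative to the TMM-scaled library total on the usual CPM scale. The SE comes from the F statistic. DESeq2 1.42.0, limma 3.58.1 on log2(FPKM + 1), other scalings, other filters (none, minimum count 50), the replicate block and each library left out were alternatives. DESeq2 with a library left out was added after seeing the data. Tested on simulated data (12892 genes), the edgeR test found 93 of 100 genes with a 4-fold and 32 of 100 with a 2-fold change, and made 9 false calls. Same-numbered libraries of the 2 groups had deviations correlated at 0.291, 0.173 and 0.150, each above 0.1. Stretched 1 and static 2, of unlike number, reached 0.114. The numbers taken from the titles were therefore used as pairs in the replicate block alternative, and not in the main fit. What libraries of equal number share is not stated in the labels. No libraries were duplicates: replicates differed by 17.2 to 120 times the counting noise (chi-square per degree of freedom). Sequences and coordinates (1-based) are RefSeq GRCm38.p6.

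The members and lists were chosen with earlier results of these data known. All members are named. Values in every library are given for the actins, each member past the threshold, the 2 most abundant of each role with none, the 6 transcripts with the smallest p, and, of the wider list, at most 4 genes past the threshold per group or else the most abundant. Other genes with such values were chosen after these were seen. The count for 1 group of the wider list is not reported here. The printed windows are those of actins or called members with a CArG box.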

Additional observations from a re-analysis of the deposited data

How the results depend on the processing

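The count of lower members was 8 with DESeq2's size factors in edgeR, without a filter and with a minimum count of 50, 13 with library size only, 12 with limma on log2(FPKM + 1), 11 with DESeq2 and 5 with the replicate block; leaving out 1 library gave 0 to 19 in edgeR and 9 to 26 in DESeq2. Higher members numbered 0 in each of these except 1 in DESeq2, 0 to 2 in edgeR and 0 to 2 in DESeq2 with 1 library left out. The 89 other actin genes had 6 higher and 12 lower in DESeq2, and 1 higher and 15 lower in limma. With 1 library left out they had 0 to 8 higher and 0 to 21 lower in edgeR and 2 to 10 (4 without static 2) and 8 to 24 in DESeq2. Over all genes limma called 536 higher and 1305 lower. DESeq2 called 10.2% of all genes higher and 9.43% lower with all libraries. With 1 library left out it called 5.41% to 16.9% higher and 4.06% to 15.9% lower, and edgeR called 0% to 16.1% and 0% to 15.4%. Genes called in all numbered 2608 in DESeq2 and 0 to 4106 with 1 library left out in edgeR. DESeq2 called 24 member transcripts, where edgeR called 0 under each alternative. The replicate block lost Actb, Actr3 and Pfn1 and changed no other call of a member, and gave 3 higher and 8 lower of the other actin genes. Of the 17 shares, those of Cfl2 and Enah moved by more than the spread between libraries when taken from counts in place of FPKM: the stretched minus static difference was then 1.19 and 4.97 percentage points, against 0.452 and 2.04 from FPKM.

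Signs turned for 7 members that did not pass. With library size only and with limma they were -0.11 and -0.11 for Arpc1a, -0.061 and -0.074 for Arpc3, -0.080 and -0.083 for Coro1b, -0.12 and -0.12 for Actn4, -0.11 and -0.094 for Msn and -0.032 and -0.025 for Tpm4. Gsn was at -0.024 in limma, and with 1 library left out Gsn ran from -0.080 (stretched 3) to 0.37 and Msn from -0.11 (static 3; -0.078 without stretched 2) to 0.23. The cause was not tested. With library size only, all genes shifted too.

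Leaving out static 3 lost none of the 8 lower members, and leaving out any 1 of the other libraries left 0 to 4 of them called. The SD and SE values carry the spread between libraries. The counting noise to which replicates were compared covers counting error only.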
